A study of Mus musculus with 10 samples.

Results

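The genes described here are 10 rows of the count table that code for secreted peptides, for a peptide-binding protein and for proteins that process or store prohormones: *Sst*, *Vip*, *Calca*, *Nts*, *Penk*, *Edn1*, *Crhbp*, *Pcsk1*, *Pcsk2* and *Scg2*. They were taken by name from a table of 23201 genes, and all 10 were found. They had been chosen because single cells with very high counts had been seen in these data, so their levels are given as a description and no test was made. Mouse embryonic fibroblasts (MEFs) were treated with the C6FAE cocktail, which holds CHIR99021 (an inhibitor of GSK3), an inhibitor of the TGF-β receptor that is abbreviated 6, Forskolin (an activator of adenylyl cyclase), AM580 (a retinoic acid receptor agonist) and EPZ004777 (an inhibitor of DOT1L). The single-cell course is named C6FAE, without valproic acid, although the general culture protocol of the study also lists that compound. Treatment drives some of the cells to a fate like that of extraembryonic endoderm (XEN).

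Single cells were picked by hand and fell into 12 groups by their names. These were d0 (the starting MEFs), d1, d2, d3, d4, d5, d6p, d8, d12 and d20, named by the day, plus d8c and d12c, which came from colonies picked on days 8 and 12. What the p in d6p stands for is not stated. The agents were given together and cannot be told apart, and no group gives untreated cells after d0. The fibroblasts were from embryos of ICR mice in mid-gestation. The table holds 808 cells with 808 distinct names, of which 670 with at least 4000 detected genes were kept, between 20 at d8c and 86 at d6p. The kept cell nearest to that limit had 4025 genes, and the nearest cell left out had 3997. Counts are of unique molecular identifiers (UMIs), sequence tags by which copies of the same RNA molecule are counted only once, and levels are given as CPM, the UMIs of a gene for every 1000000 UMIs of the cell. The median depth was 510350 UMIs over the kept cells, with the lowest group median (195546) at d20 and the highest (1055260) at d2. The series lists 10 batches, but cell names show no batch, and an annotation of barcodes that the labels mention was not used here, so the table was read as 1 sample without replicates. Shares of cells carry exact Clopper-Pearson intervals at 95%, which cover counting error only. As a check of the MEF label, the summed level of 10 fibroblast markers had a median of 3522 CPM over d0 cells, where it ran from 96.5 to 14266 CPM, and of 46.0 CPM over d20 cells.

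Peptide hormones and neuropeptides are made as long precursors. Prohormone convertases such as PCSK1 and PCSK2 cut the precursor at basic residues, carboxypeptidases trim the ends, and the product is stored with granins such as SCG2 in dense-core granules until it is released. Neurons and endocrine cells are their classic source, but fibroblasts and other mesenchymal cells can transcribe several of these genes. The *Sst* promoter is a textbook case of the cAMP response element (CRE), a site bound by CREB when cAMP rises, and Forskolin raises cAMP.

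The stretches before the start sites are shown first because the cocktail contains Forskolin. A 300-base promoter (RefSeq, GRCm38.p6, 250 bases before and 50 after the start) was found for 9 of the 10 genes, and *Penk* had no entry. The full CRE, TGACGTCA, which reads the same on both strands, stood in the promoters of 3 of these 9 genes, *Sst*, *Pcsk1* and *Scg2*, and in 1.79% of all 32851 promoters. Its short core TGACG, searched on both strands (CGTCA on the other) and also contained in the full element, stood in 8 of the 9 and in 20.8% of all promoters. The full element began 48 bases before the start in *Sst*, 78 in *Pcsk1* and 68 in *Scg2*. The core began 79 bases before the start in *Vip*, 65 in *Calca*, 64 in *Crhbp*, 34 in *Pcsk2* and 166 in *Nts*, and neither was found in the window of *Edn1*. Capitals mark the full element or the core in the following stretches, 5′ to 3′ along the gene, and positions are from an exact match to NCBIM37 (mm9), the build of the files.
*Sst*, chr16:23890931-23891030, minus strand: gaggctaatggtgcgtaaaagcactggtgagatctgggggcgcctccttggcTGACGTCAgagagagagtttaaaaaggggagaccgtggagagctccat
*Pcsk1*, chr13:75227205-75227264, plus strand: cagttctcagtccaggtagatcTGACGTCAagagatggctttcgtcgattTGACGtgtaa
*Scg2*, chr1:79436651-79436680, minus strand: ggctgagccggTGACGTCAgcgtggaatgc
*Vip*, chr10:4707324-4707423, minus strand: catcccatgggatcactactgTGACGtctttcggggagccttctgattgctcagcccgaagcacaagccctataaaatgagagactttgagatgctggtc
*Calca*, chr7:121779872-121779971, minus strand: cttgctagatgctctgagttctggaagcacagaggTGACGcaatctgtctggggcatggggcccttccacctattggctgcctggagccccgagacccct
*Crhbp*, chr13:96214787-96214886, minus strand: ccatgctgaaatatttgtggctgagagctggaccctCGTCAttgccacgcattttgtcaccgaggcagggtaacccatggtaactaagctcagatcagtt
*Pcsk2*, chr2:143371769-143371868, plus strand: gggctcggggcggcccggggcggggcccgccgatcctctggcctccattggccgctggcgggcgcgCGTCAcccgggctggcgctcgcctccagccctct
The starts used here are those of RefSeq. In GENCODE M1, from which the gene positions below are taken, *Scg2* starts further upstream, at 79436665, which lies inside the stretch shown for it. These matches are letters only, and binding was not measured.

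Over the course the genes took different shapes. *Penk* was present in almost every cell until d12 and low at d20. *Calca* appeared in a part of the cells from d2 to d12. Most UMIs of *Sst*, *Nts*, *Vip* and *Crhbp* lay in few cells, although every d8 and d8c cell had a UMI of *Sst* and 62 of 67 d12 cells one of *Crhbp*. *Edn1* had its highest means at d0, d4, d8 and d8c, and *Scg2*, *Pcsk2* and *Pcsk1* were seen mostly in scattered single cells. A mean was called different where it was 4-fold above or below that of d0 on the scale of CPM + 1, among genes with a mean of at least 1 CPM in either group. At d1, 3 of 6 members tested were higher and 1 lower, where 2.12% of all genes tested were higher and 3.5% lower. At d2 4 of 7 were higher and 1 lower (2.71 and 2.3% of all genes tested), and at d3 2 of 7 and 2 (4.09 and 3.44%). The count was highest at d4, where 7 of 8 were higher and 0 lower (4.81 and 2.73%), *Edn1* being the member that passed in neither direction. At d5 3 of 7 were higher and 0 lower (6.03 and 3.24%), at d6p 4 of 7 and 0 (6.8 and 4.22%), and at d8 3 of 7 and 1 (6.17 and 4.26%). At d8c 4 of 6 were higher and 0 lower (7.09 and 7.47%), at d12 4 of 7 and 1 (8.19 and 4.46%), and at d12c 2 of 6 and 2 (7.49 and 4.19%). At d20 0 of 6 were higher and 3 of 6 (*Penk*, *Scg2*, *Edn1*) were lower (8.15 and 9.38%). Against d12, 0 of 8 members were higher at d20 and 5 were lower (*Calca*, *Nts*, *Crhbp*, *Penk*, *Scg2*), where 10.2% of all genes tested were higher and 12.7% lower. Without the highest d12 cell of each gene, the d12 means of *Calca*, *Nts* and *Scg2* were 3.45, 4.31 and 0.117 CPM. At d20 they were 2.48, 0.823 and 0 CPM, so on these means none of the 3 was 4-fold lower. All comparisons with d0 share its 72 cells. The members were chosen for such levels, so nothing is read from these counts.

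**Figure D1:**
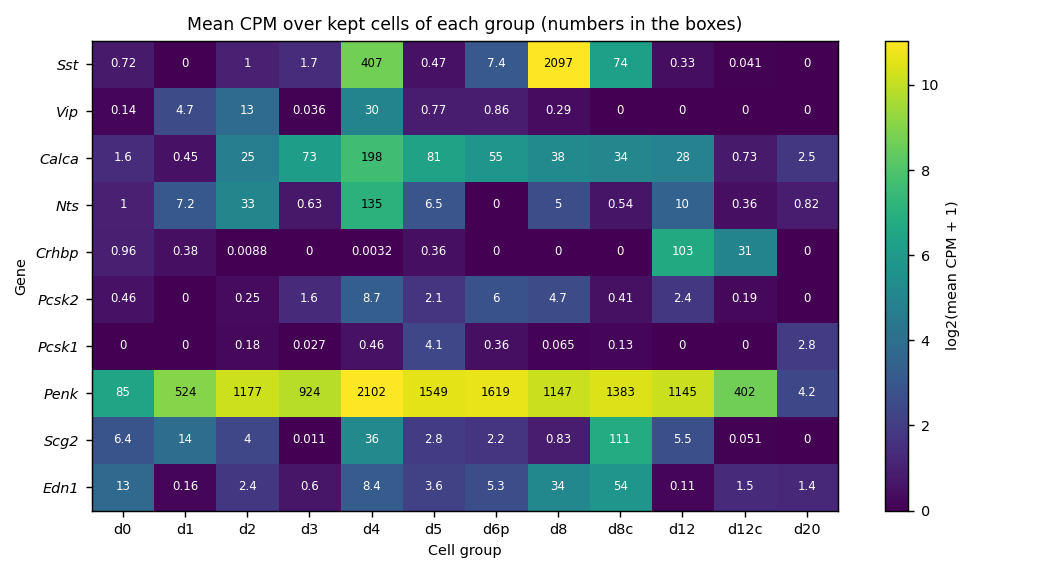
Mean CPM of each gene (vertical) in each of the 12 cell groups (horizontal), with the mean printed in the box and colour on the scale of log2(mean CPM + 1). *Penk* runs from 85.3 at d0 through 2102 at d4 to 4.19 at d20, while *Crhbp* stands out at d12 and d12c alone.

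Means hide how the UMIs were spread over cells. A cell with at least 100 CPM of a gene is called a high cell here. There were 388 high cells for *Penk*, 49 for *Calca*, 30 for *Sst*, 17 for *Nts*, 16 for *Edn1*, 14 for *Crhbp*, 7 for *Vip*, 7 for *Scg2*, 3 for *Pcsk2* and 1 for *Pcsk1*. The 10 richest cells held 96.1% of all *Pcsk1* UMIs, 91.8% of *Nts*, 91.6% of *Vip*, 90.3% of *Sst*, 85.3% of *Crhbp* and 79.6% of *Scg2*. The share was 65.0% for *Calca*, 59.2% for *Pcsk2*, 45.8% for *Edn1* and 35.3% for *Penk*. Of the 30 *Sst*-high cells 23 were d8 cells, 13 lay between 100 and 200 CPM and 9 reached 500 CPM. In d4 the highest cell held over 50% of the summed CPM for 3 of 8 members with a mean of at least 1 CPM (*Sst*, *Pcsk2*, *Scg2*), and for 4.57% of all such genes. Before d4 this held for 1 of 5 members at d0 (8.45% of all such genes), 2 of 4 at d1 (7.03%), 3 of 7 at d2 (3.04%) and 2 of 4 at d3 (7.19%). After d4 it held for 4 of 7 at d5 (9.16%), 2 of 6 at d6p (9.75%), 2 of 6 at d8 (9.47%), 3 of 5 among the 20 cells of d8c (30.4%), 4 of 6 at d12 (9.08%), 3 of 3 at d12c (15.1%) and 3 of 4 at d20 (18.8%). Such cells were among the reasons the members were chosen.

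**Figure D2:**
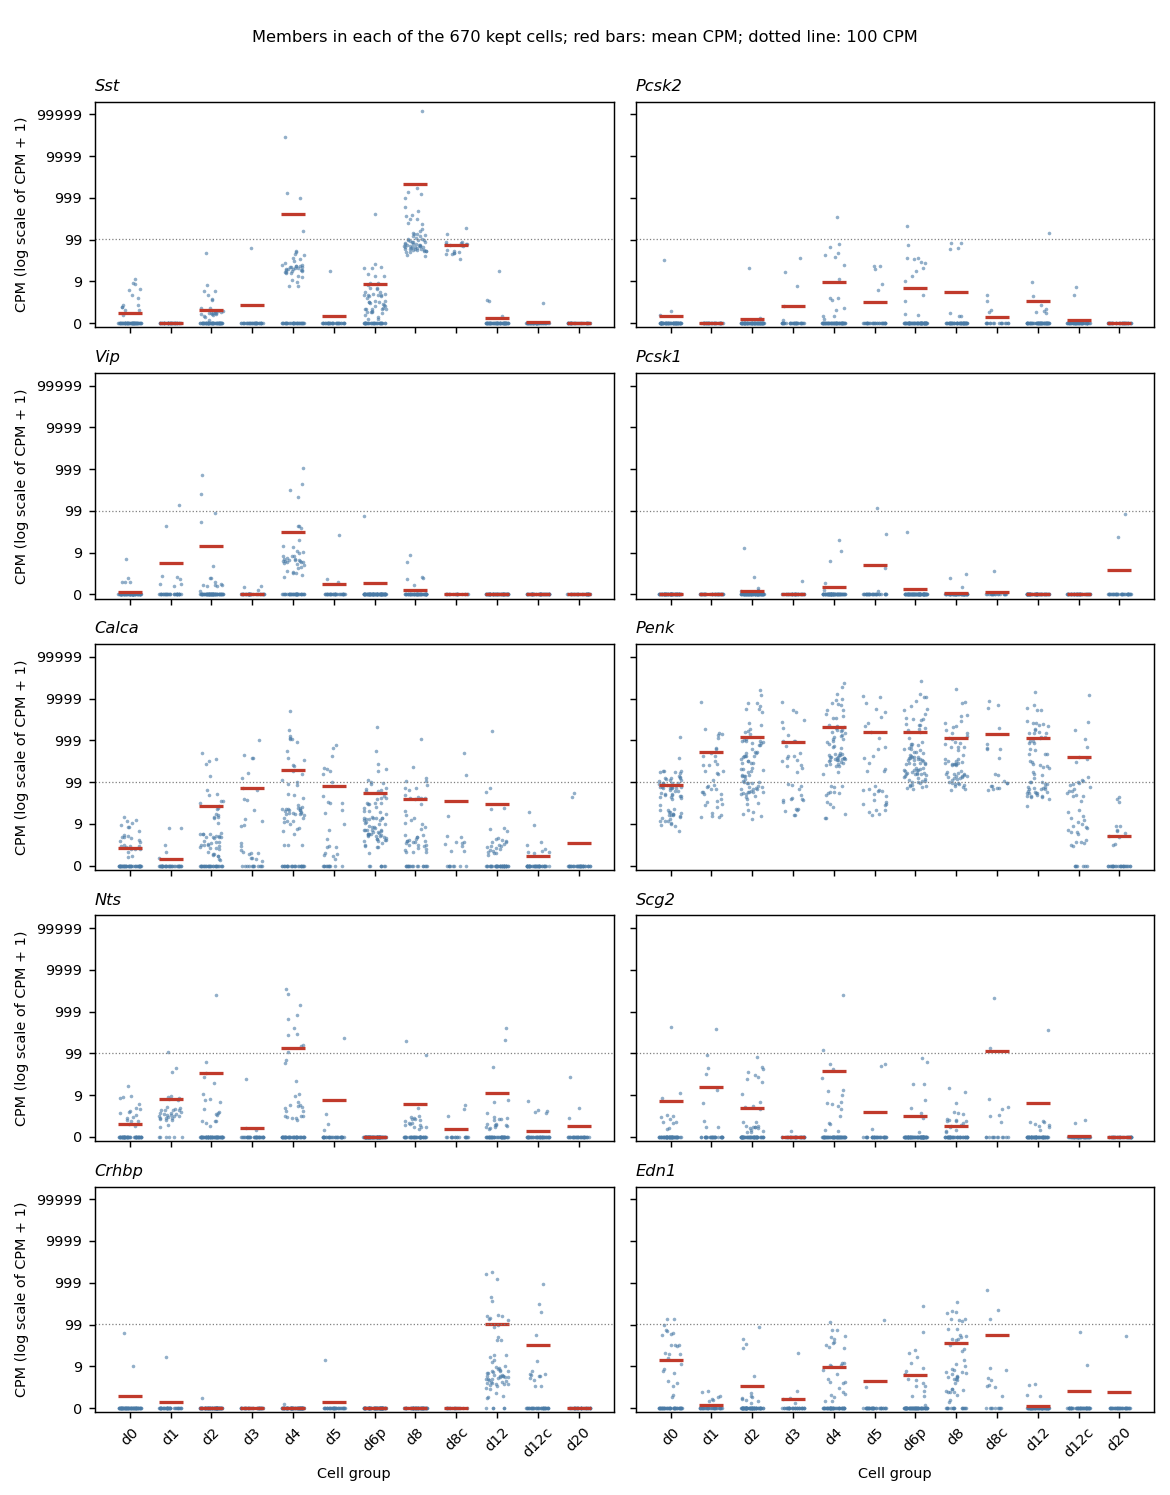
Level of the 10 genes in each kept cell (points) by cell group, with CPM on a log scale of CPM + 1, the mean CPM of the group as a red bar and 100 CPM as a dotted line. For *Sst*, *Vip*, *Nts* and *Scg2* the red bar often lies far above most points, because 1 or a few cells carry the mean, whereas *Penk* cells spread from under 100 CPM to well above it from d1 to d12.

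*Sst* (chromosome 16, 23889667 to 23890930, minus strand) codes for preprosomatostatin, a peptide that restrains hormone release. At d0 its mean was 0.72 CPM with a highest cell of 10.1 CPM, and no UMI was counted in the 40 cells of d1, an interval of 0 to 8.81%. At d4 the lowest cell was at 0, the median at 6.93 and the highest at 28050 CPM, and at d8 these were 40.6, 82.7 and 117720 CPM. The highest d8 cell, numbered 32, held 38373 *Sst* UMIs, 11.8% of all its UMIs and 67.9% of all *Sst* UMIs of the kept cells. That cell lifted the d8 mean to 2097 CPM, which was 202 CPM without it. All 62 d8 cells and all 20 d8c cells had a UMI. After d8 the gene was almost gone, with 6 UMIs in 67 cells at d12, 1 in 51 cells at d12c and 0 in 38 cells at d20. The share of cells with a UMI is bound to depth, but after thinning to 50000 UMIs it was still 57 of 59 cells at d8 and 19 of 20 at d8c, against 0 of 66 at d12.

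Below the single high cells, *Sst* lay at an even low level in whole ranges of cell numbers. Of the 61 other d8 cells, the middle 50% lay between 62.4 and 136 CPM. The 39 d8 cells under the limit of 100 CPM had a median of 67.1 CPM, and the 18 such d8c cells a median of 70.2 CPM, although no d8c cell went above 192 CPM. At d4 the level followed the cell number. All 40 kept cells numbered 1 to 48 had a UMI, with a median of 20.6 CPM, while 0 of 37 cells numbered 49 to 96 had any (interval 0 to 9.49%). The median depth of these blocks was 778319 and 322100 UMIs, and thinned to 50000 UMIs the shares were 23 of 39 and 0 of 34. The highest d4 cell, numbered 31 with 4964 *Sst* UMIs, belonged to the block in which every cell had some. In the d6p cells, 50 of 86 had a UMI, the highest was at 402 CPM and the next at 24.5 CPM.

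*Nts* codes for the precursor of neurotensin and neuromedin N (chromosome 10, 101944394 to 101953052, minus strand). At d4 it had the reverse arrangement to *Sst*. Only 1 of 40 cells numbered 1 to 48 had a UMI (2.50%, interval 0.0633 to 13.2%), against 30 of 37 cells numbered 49 to 96 (81.1%, interval 64.8 to 92.0%), although the second block was less deeply sequenced. All 11 high cells of d4 lay in the second block, whose mean was 282 CPM and whose highest cell reached 3401 CPM. Comparing the blocks by the 4-fold rule, 4 of 8 members were higher in numbers 1 to 48 (*Sst*, *Vip*, *Calca*, *Pcsk2*) and 2 were lower (*Nts*, *Scg2*), against 2.15% higher and 3.02% lower of all genes tested. Of the fibroblast markers 5 of 10 were higher in numbers 1 to 48 and 0 lower, with a median log2 difference of 2.02. Of the neuron markers 4 of 8 tested were lower and 0 higher, with a median of -2.02. The second block holds the d4 cell numbered 53, with 3783 CPM of *Stmn2* and 253 CPM of *Map2*. In the other 76 d4 cells these markers had means of 30.0 and 0.179 CPM. The neuron counts were not repeated without that cell. The median sum of the neuron markers was 6.43 CPM in the first block and 37.4 CPM in the second. The part of these marker differences in the members' levels was not tested. Since cells of the same day differed this much by their number, the d4 means of these genes depend on how many cells of each block were kept.

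A like division was seen for *Nts* at other days. At d0, 18 of 43 cells numbered 1 to 48 had a UMI and 0 of 29 cells numbered 49 and above. At d2 these counts were 19 of 45 and 0 of 38, although the second d2 block was the deeper, with a median of 1254670 against 721693 UMIs. In the first d2 block stood the cell numbered 4, with 8869 *Nts* UMIs (2539 CPM), while the second highest d2 cell reached only 62.3 CPM. At d1, 34 of 40 cells had a UMI and the median was 2.35 CPM. No UMI was counted in the 86 cells of d6p, an interval of 0 to 4.20%. At d5 the gene rested on 1 cell of 229 CPM, and at d8 and d12 on 3 high cells between 199 and 395 CPM.

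*Vip* codes for the precursor of vasoactive intestinal peptide (chromosome 10, 4698927 to 4707323, minus strand), a peptide that itself raises cAMP in its target cells. It was an early gene, with 7 high cells, of which 1 was at d1, 2 at d2 and 4 at d4. The d4 mean of 30.4 CPM fell to 16.8 CPM without the cell numbered 38, which held 1322 UMIs (1062 CPM). Like *Sst*, the gene was found at d4 mostly in numbers 1 to 48, in 35 of 40 cells, against 4 of 37 in the second block. In d8c, d12, d12c and d20 no UMI was counted, for which the interval in the 67 cells of d12 was 0 to 5.36%.

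*Calca* codes for calcitonin and the alpha form of calcitonin gene-related peptide (chromosome 7, 121774994 to 121779871, minus strand). It differed from the 3 genes above in that its high cells were spread over 8 groups, from 5 at d2 through 15 at d4 and 8 at d5 to 1 at d12. The mean went from 1.64 CPM at d0 and 0.45 CPM at d1 to 25.1 CPM at d2, 72.8 CPM at d3 and 198 CPM at d4, and then went down to 54.7 CPM at d6p, 28.3 CPM at d12 and 2.48 CPM at d20. In d4 the lowest cell was at 0, the median at 16.5 and the highest at 4927 CPM. Without the highest cell the d4 mean was still 136 CPM, while that of d12 went from 28.3 to 3.45 CPM. Between 60.0 and 91.9% of the cells of each group from d2 to d8c had a UMI, and thinned to 50000 UMIs between 18 of 82 (d2) and 36 of 81 (d6p) for the groups with over 50 cells in that span. The paralog *Calcb*, the beta form, is similar in sequence, and how reads were shared between the pair is not stated, so both levels are uncertain. Of 49 cells high in *Calca* and 65 high in *Calcb*, 13 were high in both, which is 26.5% of the first and 20% of the second.

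**Figure D3:**
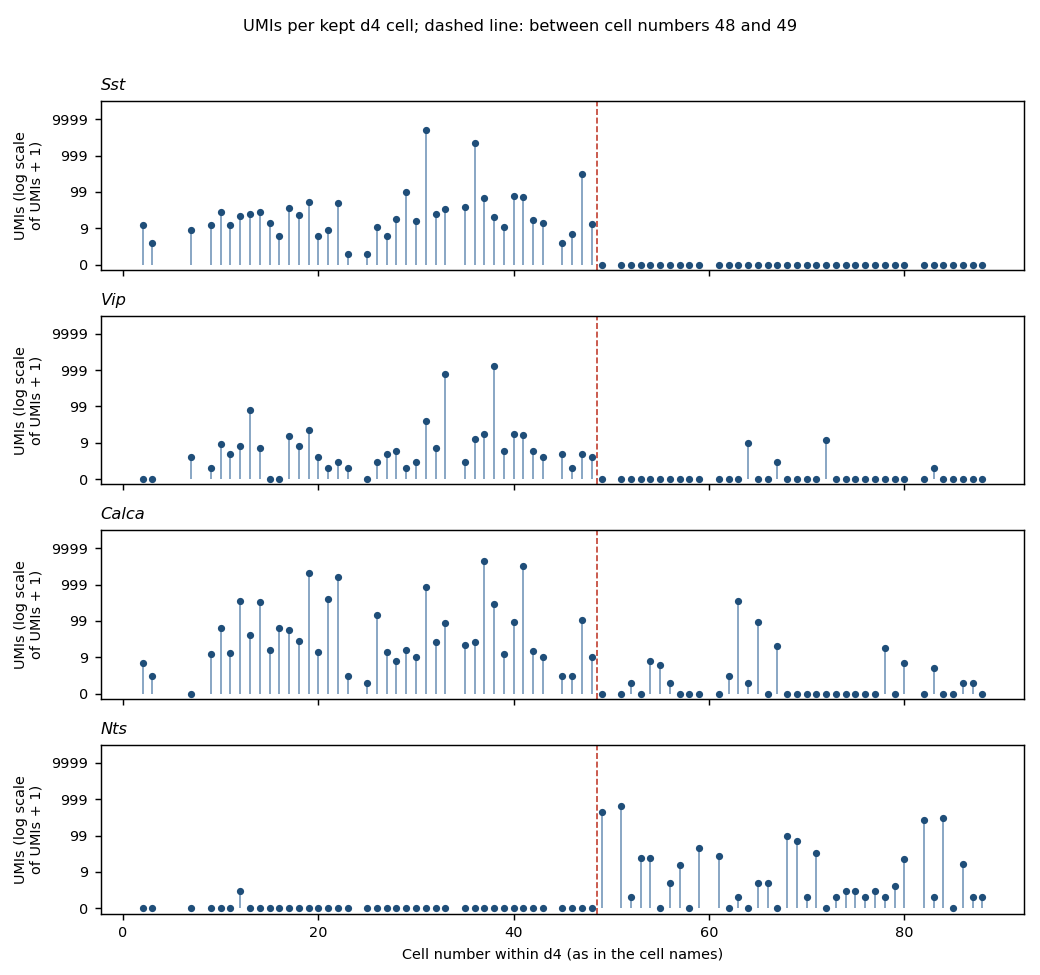
UMIs of *Sst*, *Vip*, *Calca* and *Nts* in each kept d4 cell (log scale of UMIs + 1), in the order of the numbers in the cell names, with a dashed line between numbers 48 and 49. *Sst* has a UMI in 40 of 40 cells to the left and 0 of 37 to the right, and *Nts* in 1 of 40 and 30 of 37.

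*Crhbp* codes for the binding protein that captures corticotropin-releasing hormone (chromosome 13, 96201326 to 96214786, minus strand). It was the latest of the genes. No UMI was counted at d3, d6p, d8 or d8c, and 2 d0 cells and 1 cell each of d1, d2, d4 and d5 had one, up to 60.2 CPM, whereas at d12 62 of 67 cells had one (92.5%, interval 83.4 to 97.5%) and 11 were high. The d12 cells ranged from 0 over a median of 5.06 to 1791 CPM, with a second cell at 1613 CPM, so the mean of 103 CPM did not rest on 1 cell and was 77.3 CPM without the highest. Of the colony cells, 15 of 21 numbered 1 to 24 had a UMI and 3 were high, against 0 of 30 numbered 49 to 96 (interval 0 to 11.6%), and no cell numbered 25 to 48 passed the filter. At d20 0 of 38 cells had a UMI. In colony cells numbered 49 to 96, 4 of 7 members were 4-fold lower than in d12 (*Calca*, *Nts*, *Crhbp*, *Scg2*) and 0 higher, where 12.4% of all genes tested were lower and 7.35% higher. In those numbered 1 to 24, 3 of 6 were lower (*Calca*, *Nts*, *Scg2*) and 0 higher, where 3.04% of all genes tested were lower and 2.59% higher. Without the highest d12 cell of each gene, the d12 means of these 3 were 3.45, 4.31 and 0.117 CPM. In numbers 1 to 24 they were 1.77, 0.881 and 0.123 CPM, so on these means none of the 3 was 4-fold lower. Of the markers, 10 of 10 for fibroblasts were lower and 7 of 12 for XEN higher in numbers 49 to 96, against 0 of 10 and 1 of 12 in numbers 1 to 24. The part of this in the members' levels was not tested. The ligand gene *Crh*, by contrast, had 88.7% of its summed CPM in 1 cell, the d12 cell numbered 15 at 980 CPM.

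*Penk* codes for proenkephalin, the precursor of the enkephalins (chromosome 4, 4060678 to 4065966, minus strand). Every kept cell from d0 to d12, d8c included, had a UMI, as did 44 of 51 at d12c and 12 of 38 at d20 (31.6%, interval 17.5 to 48.7%). The d0 cells ranged from 5.71 over a median of 60.2 to 1212 CPM. At d1 the median was 98.2 and the mean 524 CPM, at d2 206 and 1177 CPM, and at d4 450 and 2102 CPM, the highest mean. At d4 all 40 cells numbered 1 to 48 were high, with a median of 1070 CPM, against 23 of 37 numbered 49 to 96, with a median of 260 CPM. The mean then lay between 1145 and 1619 CPM from d5 to d12, where the highest cell, d6p number 69, reached 26774 CPM, 2.68% of its UMIs. Mean and median went apart in every group from d1 to d12c, in d12c as far as 402 against 17.8 CPM, and in d4 high cells held 99.6% of the summed CPM. The d12c colony cells numbered 1 to 24 had 11 high cells of 21, and those numbered 49 to 96 had 1 of 30, at 11869 CPM. At d20 the highest cell was at 42.1 CPM and the mean at 4.19 CPM.

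*Edn1* codes for preproendothelin-1, which is cut to a peptide that contracts vessels (chromosome 13, 42396639 to 42403358, plus strand). It was the only member besides *Penk* with a mean of over 10 CPM at d0, at 12.8 CPM with 25 of 72 cells positive and a highest cell of 136 CPM. At d1 the mean was 0.158 CPM with 9 UMIs in 7 of 40 cells, and at d3 it was 0.604 CPM. It was 34.4 CPM at d8, where 47 of 62 cells were positive (75.8%, interval 63.3 to 85.8%) and 8 were high, and 53.8 CPM at d8c, where 1 cell of 687 CPM made up 63.9% of the sum. At d12 the mean was 0.108 CPM, with 6 UMIs in 4 of 67 cells, and thinned shares were 26 of 59 at d8 and 0 of 66 at d12. Between d8 and d12, 2 of 8 members were 4-fold lower (*Sst*, *Edn1*; 3.14% of all genes tested) and 1 was higher (*Crhbp*; 5.54%). Between d6p and d8, 3 of 7 were higher (*Sst*, *Nts*, *Edn1*) and 0 lower, where 1.32% of all genes tested were higher and 1.68% lower. The d8 mean of *Nts* went from 5.03 to 1.85 CPM without its highest cell, which is under the 4-fold limit. The colony cells of d8c had 1 of 7 members higher (*Scg2*) and 2 lower (*Sst*, *Pcsk2*) than d8, where 3.91% of all genes tested were higher and 5.44% lower. Without the highest d8 cell of each gene, the d8 means were 202 CPM for *Sst* and 3.38 CPM for *Pcsk2*. At d8c they were 73.8 and 0.408 CPM, so on these means neither was 4-fold lower. The medians of *Sst* were 82.7 CPM at d8 and 73.3 CPM at d8c.

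**Figure D4:**
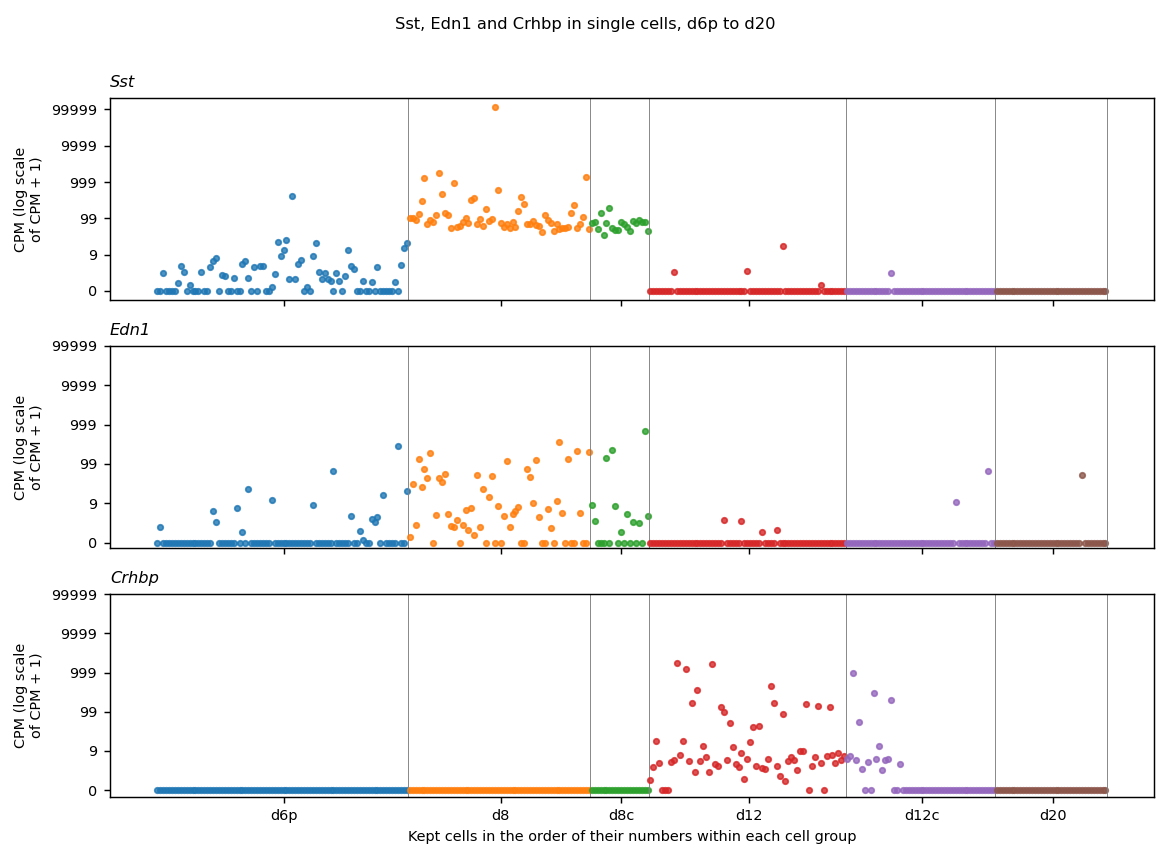
CPM of *Sst*, *Edn1* and *Crhbp* (log scale of CPM + 1) in each kept cell from d6p to d20, in the order of the cell numbers within each group. *Sst* forms a band between 33 and 200 CPM over most d8 and d8c cells, and *Crhbp* is present at d12 and in the first 21 of the 51 d12c cells.

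The transcripts of the 2 convertases, *Pcsk1* and *Pcsk2*, had the fewest UMIs and the fewest positive cells of the 10 genes. *Pcsk1* (chromosome 13, 75227274 to 75269946, plus strand) had 356 UMIs in 22 of 670 cells, of which 211 lay in the d5 cell numbered 3 (117 CPM), its only high cell. It was absent from d0, d1, d12 and d12c, and at d20 2 of 38 cells held 30 UMIs, at 85.3 and 22.8 CPM. *Pcsk2* (chromosome 2, 143371892 to 143642021, plus strand) had 998 UMIs in 67 cells. Its 3 high cells were d4 number 46 at 357 CPM, d6p number 93 at 215 CPM and d12 number 32 at 144 CPM, all of which were also high in *Penk*. Its mean was highest at d4, at 8.70 CPM, and it was at 0 in the 40 cells of d1 and the 38 cells of d20.

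*Scg2* codes for secretogranin II, a granin (chromosome 1, 79431244 to 79436665, minus strand). Its 7 high cells were scattered over 5 groups, with the highest at 428 CPM in d0, 384 in d1, 2458 in d4, 2067 in d8c and 359 in d12. In d0, d4, d8c and d12 these single cells made up between 89.0 and 97.9% of the summed CPM, and without them the means fell from 6.36 to 0.430, 35.9 to 3.99, 111 to 8.11 and 5.47 to 0.117 CPM. The d4 cell, numbered 53, differed from the other cells by more than this gene. Its 9 neuron markers summed to 6361 CPM, against a d4 median of 16.5 CPM, and its 10 fibroblast markers to 233 CPM, the lowest of d4, against a median of 3755 CPM. In it *Stmn2* was at 3783, *Tubb3* at 1565, *Snap25* at 500 and *Map2* at 253 CPM. It also held 746 CPM of *Scg5*, a helper of PCSK2, 673 CPM of *Adcyap1*, which codes for the peptide PACAP, 233 CPM of *Scg3* and 153 CPM of *Nts*, but no member besides *Scg2* and *Nts* reached 100 CPM. It was 1 cell with 150135 UMIs. The d8c cell, numbered 6, also had a low sum of fibroblast markers, 1171 CPM against a group median of 6296, and 412 CPM of the macrophage-associated gene *Cd68*. That was the whole sum of its 4 immune markers, so *Ptprc*, *Tyrobp* and *Csf1r* were at 0 in it.

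Any of the 9 genes other than *Penk* was high in 134 of 670 cells. In these the fibroblast markers had a median sum of 7054 CPM (233 to 55623) and lay above the median of their own group in 71 of 134, the XEN markers in 65 and the depth in 62. The members differed in this, since the fibroblast sum was above the group median in 19 of 30 *Sst*-high and 29 of 49 *Calca*-high cells but in 3 of 17 *Nts*-high and 3 of 7 *Scg2*-high cells. Neuron markers were above it in 14 of 17 *Nts*-high cells. Of these 17 cells 11 lay in d4 numbers 49 to 96, and against the median of that block the fibroblast sum was higher in 3 of 11 and the neuron sum in 7 of 11. The part of other cell types in these levels was not tested. The depth differed between members too, as it was above the group median in 9 of 30 *Sst*-high and 5 of 17 *Nts*-high cells. It was above it in 28 of 49 *Calca*-high and 11 of 16 *Edn1*-high cells. The *Sst*-high cells had a median depth of 305270 UMIs and a lowest of 17636, and the part of depth was not tested. All 134 had a UMI of *Col1a1*, *Col1a2*, *Col3a1*, *Thy1* and *Twist2*, genes of fibroblasts and mesenchyme. The 7 neuroendocrine markers had a median sum of 0 CPM and at most 220 CPM, with *Chgb* seen in 1 of the 134. Of the defining markers of other cells, *Sox10* (Schwann cells), *Ptprc* and *Tyrobp* (immune cells) and *Emcn* (endothelium) were at 0 in all 134. Neuron markers summed to a median of 14.8 CPM, with *Stmn2* seen in 84 and *Tubb3* in 75 of the cells, and were above the group median in 76 of 134.

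The overlap between high cells of different members is given as counts and was not tested. High cells of the 9 genes other than *Penk* were few, so a small overlap is not read as a trait of these genes. For scale, *Calca* was high in 2 of 30 *Sst*-high and 2 of 7 *Vip*-high cells, and in 49 of all 670 cells. Among the 134 cells, 125 were high in 1 of the 9 genes, 8 in 2 and 1 in 3, and 8 of the 36 gene pairs shared any high cell. The cell high in 3 was d4 number 31, with *Sst* at 28050, *Calca* at 4927 and *Vip* at 215 CPM, and it also had 362 CPM of *Penk*. The d4 cell numbered 38 combined *Vip* at 1062 and *Calca* at 235 CPM with *Penk* at 23982 CPM. At d12 the cells numbered 18 and 46 were high in both *Nts* and *Crhbp*. *Penk* was high in 28 of 30 *Sst*-high cells, 37 of 49 *Calca*-high cells, 11 of 14 *Crhbp*-high cells and 8 of 17 *Nts*-high cells. It was also high in 288 of the 536 cells that were high in none of the 9 genes (53.7%), and in 53 of all 62 d8 cells. Within groups, cells high in another member had the higher median *Penk* level in 8 of 11 groups. It was 697 CPM against 398 in the other cells of d4, 286 against 255 at d8 and 910 against 214 at d12. In the other 3 it was lower, with 73.7 against 113 CPM at d1, 75.1 against 292 at d2 and 80.3 against 200.2 at d5.

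The even low levels were then set against the highest cell of the same range of 24 cell numbers. Over the 9 genes other than *Penk*, 12 ranges had a highest cell of 1000 UMIs or more, and in 12 of 12 the median of the other cells was at least 1 UMI, with a middle value of 4 and a top of 113 UMIs. With a highest cell of at least 100 but fewer UMIs than that this held in 19 of 42 ranges, with 10 to 99 UMIs in 9 of 58, and with 1 to 9 UMIs in 3 of 90. For *Penk* it held in 26 of 26 ranges with a highest cell of 1000 UMIs or more. The share over all genes was not counted, and the members were chosen for such cells. These shares are therefore not read as a trait of the 9 genes. In the 12 ranges the median other cell had between 0.0113 and 6.10% of the UMIs of the highest cell, with a middle value of 0.258%. For *Sst* in d8 numbers 25 to 48 the 19 other cells had a median of 55 UMIs, 0.143% of the highest cell, for *Sst* in d4 numbers 25 to 48 this was 0.342%, and for *Crhbp* in d12 numbers 25 to 48 0.220%. The lowest of these shares was that of *Nts* in d2 numbers 1 to 24, where 8869 UMIs in 1 cell stood beside a median of 1. With ranges of 48 numbers, a width chosen after the data were seen, the median was at least 1 UMI in 8 of 9 ranges. Even levels also stood without such a cell. In d8c all cells were positive for *Sst* while the highest had 90 UMIs, and in d4 numbers 1 to 24 all 17 other cells were positive, with a median of 11 UMIs, beside a highest of 51. A transcript made by the low cells and one carried over from a cell handled with them cannot be told apart here, because the cell names show no pool. Shares of cells with a UMI of any member, *Calca* and *Edn1* included, are therefore given as counts of positive cells and not of cells that express the gene. Cells with 0 *Sst* UMIs at d20 had a median depth of 195546 UMIs, against 676208 at d8.

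The other genes of the pathway were read from 4 lists. Of 53 further neuropeptide and peptide hormone genes, 51 were in the table, 23 reached a mean of 10 CPM in some group and 5 had no UMI. At d4, 8 of 25 tested were 4-fold higher than d0, where 4.81% of all genes tested were higher, and at d12 14 of 28 were higher and 0 lower (8.19% of all genes tested were higher), with a median log2 difference of 1.95 against -0.09 over all genes tested. Among the 8 of d4, *Adcyap1* passed through the cell numbered 53. Its mean was 3.10 CPM in the other 76 d4 cells and 0.378 CPM at d0. The 4 with the highest means all peaked at d12, namely *Stc1* (stanniocalcin 1) with 3310 CPM from 9.42 at d0, *Adm* (adrenomedullin) with 2700 from 141, *Nppc* (C-type natriuretic peptide) with 401 from 0.997 and *Calcb* with 359 from 8.52 CPM. The highest cell held 3.52% of the summed CPM of *Stc1*, 4.11% of that of *Adm*, 18.0% of *Nppc* and 16.2% of *Calcb*. The d12 mean of *Calcb* was 157 CPM without the cell numbered 32, at 13718 CPM, and that of *Nppc* was 296 CPM without its highest cell. For *Avp* and *Kiss1* 1 d12 cell each held 73.9 and 81.9%. At d20 5 of 22 tested were higher than at d0 (*Pdyn*, *Ucn*, *Sct*, *Rln1* and *Pnoc*) and 4 lower (*Tac1*, *Adm*, *Calcb* and *Stc2*), where 8.15% of all genes tested were higher and 9.38% lower. Of these *Ucn* codes for urocortin, *Sct* for secretin and *Pdyn* for prodynorphin, with highest cells at 555 CPM of *Ucn* and 140 CPM of *Pdyn*, both in d20.

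Processing and granule genes were present more broadly than *Pcsk1* and *Pcsk2*. Of 26 in the table, 20 reached 10 CPM. At d4 8 of 23 tested were 4-fold higher than d0 and 0 lower (4.81 and 2.73% of all genes tested), and at d12 10 of 22 and 0 lower (8.19 and 4.46%). Among the 8 of d4, *Scg3* and *Scg5* passed through the cell numbered 53. The other 76 d4 cells had means of 0.191 and 0.914 CPM, against 0 and 0.903 CPM at d0. *Cpe*, the carboxypeptidase that trims prohormones, had a mean of 147 CPM at d0, 647 at d8 and 20.3 at d20. *Pam*, which amidates peptides, was at 35.9 CPM at d0 and highest at d3 with 175, *Cpz*, another carboxypeptidase, went from 1.37 at d0 to 163 CPM at d12, and *Vgf*, a granule precursor, from 1.82 to 90.9 CPM at d12. At d20 3 of 21 were higher (*Cpm*, *Chga* and *Pcsk1n*) and 5 lower (*Pcsk6*, *Furin*, *Cpe*, *Pam* and *Ece1*), where 8.15% of all genes tested were higher and 9.38% lower. *Chga*, a granin of neuroendocrine cells, was at 0 in d0 and 10.4 CPM at d20.

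Receptor genes were fewer, with 7 of 23 reaching 10 CPM. At d12 2 of 9 tested were higher than d0, *Sstr2* (a somatostatin receptor) at 22.5 CPM and *Ramp3* (a partner of the calcitonin receptor family) at 1391 CPM from 32.5, and 2 were lower (*Adcyap1r1* and *Calcrl*), where 8.19% of all genes tested were higher and 4.46% lower. At d20 *Ramp1*, the partner that makes the CGRP receptor, was at 535 CPM and *Ramp2* at 107 CPM, from 19.7 and 3.96 CPM at d0. *Calcrl*, the receptor both work with, was at 0 at d20, and *Ednrb*, an endothelin receptor, was highest at d6p with 54.2 CPM.

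Of 34 genes known to respond to cAMP or to act in its pathway, 5 of 33 tested were 4-fold higher than d0 at d4 (*Crem*, *Pde4d*, *Pde10a*, *Pde7b* and *Stc1*, which is on both lists) and 14 of 33 at d12, with 0 and 1 lower (4.81 and 8.19% of all genes tested were higher, 2.73 and 4.46% lower). *Crem*, whose product includes a cAMP-induced repressor, was at 21.4 CPM at d0, 75.1 at d1, 101 at d4 and 241 at d12. The highest means besides *Stc1* were *Fos* with 1167 and *Dusp1* with 1117 CPM, both at d8c, and *Areg* with 959 CPM at d12. At d20 2 of 32 were higher and 5 lower, where 8.15% of all genes tested were higher and 9.38% lower.

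Over the 12 groups, the genes most like each member were sought by Pearson's r of log2(mean CPM + 1) among 15296 genes with a mean of at least 1 CPM in some group. The 12 points share the table and its depth, and r is given as a description. For *Penk* these were *Rarb* (0.98), *Twist1* (0.98) and *Baalc* (0.97), of which *Twist1* had its highest mean, 312 CPM, at d5. *Rarb* codes for a retinoic acid receptor and *Twist1* for a mesenchymal transcription factor. For *Calca* they were *St7l* (0.95), *Zfp358* (0.94) and *Alg2* (0.94), for *Pcsk2* *Atg9a* (0.96), *Abcc5* (0.92) and *Gm19689* (0.92), and for *Edn1* *Mzf1* (0.92), *Srpr* (0.90) and *Mmab* (0.89). *Crhbp* was nearest to *Slc18a1* (0.99), *Cldn2* (0.99) and *Mall* (0.99), seen in 10, 30 and 46 cells. *Sst* was nearest to *E030013I19Rik* (0.95), *Dnali1* (0.93) and *Myh13* (0.92), seen in 56, 30 and 17 cells, and *Pcsk1* to *2010300C02Rik* (0.97), *Smoc1* (0.94) and *4933401H06Rik* (0.92). *Vip* and *Nts* shared *Scin* (0.95 and 0.93) among their nearest genes, beside *Crisp1* (0.96) and *Zap70* (0.92) for *Vip* and *Fam159a* (0.90) and *Rab1b* (0.87) for *Nts*. *Scg2* was nearest to *Abi3* (0.86), *Nlrc5* (0.83) and *Fam122a* (0.83), the weakest likeness of the 10.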

How the data were processed

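Reads of hand-picked single cells were split by cell barcode, trimmed, aligned to the mm9 transcriptome and collapsed by UMI by the authors. The deposited values are whole-number counts of UMIs per gene and cell, with no scaling. The aligner and the counting tool are not given in the sources used here. The 92 ERCC spike-in rows, 5.43% of the counts of kept cells, were left out of library sizes, and 4 rows of repeated names were not analysed. Doublets were not called, since cells were picked singly. Kept cells held 17636 to 6005401 UMIs.

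The rule took all 10 members, the 4 genes of each list with the highest means among those reaching 10 CPM, list genes past the 4-fold limit where counted, and the 3 genes nearest in pattern to each member. *Crh*, *Avp*, *Kiss1*, *Calcrl*, *Chga*, *Cd68* and the genes of the d4 cell numbered 53 were named after their values were seen. The members and lists were chosen with earlier results of these data known. Cells were treated as 1 sample, so no p-value was computed. Alternative settings were another filter on cells (no filter, or at least 2000 or 6000 genes), scaling (edgeR 4.0.16 TMM, DESeq2 1.42.0), averaging, pseudocount, limits and thinning to 50000 UMIs, which 23 kept cells were too shallow for. The fold rule was tested on simulated data in which the chosen genes were raised alike in all cells of a group. Those data held no single high cells, so they do not show how the rule behaves where 1 cell carries a mean. Python 3.11.15, numpy 2.4.6, pandas 2.3.3 and scipy 1.17.1 were used, and gene positions are from GENCODE M1.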

Additional observations from a re-analysis of the deposited data

Results flagged for a closer look

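Cells that the filter had left out also held members above the highest d0 cell, which was at 10.1 CPM for *Sst* and 13.5 CPM for *Calca*. Counting only those with at least 100 CPM and 10 UMIs, *Sst* was at 4296 CPM in the d2 cell numbered 48 (93 of 21649 UMIs), at 725 CPM in the d8 cell numbered 39, at 2761 CPM in number 40, at 643 CPM in number 68 and at 688 CPM in number 69. *Calca* was at 527 CPM in the d2 cell numbered 87, at 963 CPM in the d4 cell numbered 8 and at 375 CPM in the d8 cell numbered 69. These cells had between 16545 and 47994 UMIs, so these levels rest on 11 to 93 UMIs.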

How the results depend on the processing

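No paired analysis was possible because the cell names carry no replicate number and the annotation of barcodes mentioned in the labels was not used here. The number of *Penk*-high cells was 191 at 500 CPM, and that of high values of the other 9 genes was 405 at 20 CPM and 39 at 500 CPM, against 144 at 100 CPM. Members 4-fold higher than d0 at d4 numbered 4 with a pseudocount of 10 CPM and 3 with averaged log2 values, against 7. At d8 they numbered 5 with a pseudocount of 0.1 CPM, 6 with a 2-fold limit and 5 with at least 6000 detected genes, against 3. At d12 they numbered 2 with a pseudocount of 10 CPM, with averaged log2 values and without the highest cell of each group, against 4. Members lower at d20 numbered 1 with a pseudocount of 10 CPM, with an 8-fold limit, with averaged log2 values and with at least 6000 detected genes, against 3. Averaged log2 values and removal of the highest cell lower means that rest on few cells by construction, and the cause of the other shifts was not tested. TMM and DESeq2 scaling moved none of these counts by over 1.5 times. Of 180 alternative means at the peak group and d20, 95 lay outside the Poisson interval of the main value. Depth limits the shares of positive cells, which moved by over 1.5 times for 15 of 20 alternatives with thinning or at least 2 UMIs.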
